A study of Mus musculus with 8 samples.

Results

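The 10 genes described here encode transcription factors downstream of T cell receptor and calcium signals, and they were followed through naive CD4 T cells and effector Th1, Th2 and Th17 cells. They are the NFAT genes *Nfatc1*, *Nfatc2* and *Nfatc3*, the NR4A genes *Nr4a1*, *Nr4a2* and *Nr4a3*, the EGR genes *Egr1*, *Egr2* and *Egr3*, and *Tox*. The 10 members were chosen by gene symbol among the 23284 genes listed, and each was present as a single row in every library. RNA was sequenced in 8 libraries, 2 for each of the 4 groups, all made from cells of DO11.10 Tg mice. In these mice a transgenic T cell receptor (TCR) recognises an ovalbumin (OVA) peptide. Naive cells were splenic CD4 T cells sorted as CD44 low and CD62L high and were not cultured. All effector cells came from such naive cells after 6 days of culture with OVA peptide and irradiated splenocytes depleted of T cells, so every effector group had also been stimulated. IL-2 was added at 30 U/ml to Th1 and Th2 cultures, together with 100 U/ml of IL-12 for Th1 and of IL-4 for Th2. Th17 cultures received 10 ng/ml of IL-6, of IL-1β and of IL-23. Antibody to IL-4 was used at 1 µg/ml in Th1 and 10 µg/ml in Th17 cultures, and antibody to IFN-γ at 10 µg/ml in Th2 and Th17 cultures. Mice were young adults by the age range given in the methods of the study. The number of mice behind each library is not given in the sources used here, so the p-values measure the spread between these libraries, which may be technical.

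When a TCR is engaged, calcium leaves internal stores, and this emptying of the stores leads to the opening of a plasma membrane channel. The calcium that enters activates the phosphatase calcineurin through calmodulin. Calcineurin removes phosphates from NFAT proteins, which then move into the nucleus and bind DNA, often together with AP-1. EGR factors are zinc finger proteins induced within minutes of stimulation through the MAP kinase pathway, and NR4A factors are orphan nuclear receptors that are likewise induced rapidly by TCR signals. EGR2, EGR3, the NR4A factors and TOX have been described as brakes on T cell activation or as regulators of tolerance and exhaustion. The amount of NFAT mRNA says nothing of how much NFAT protein is in the nucleus.

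Where they lie in the mm10 genome, the members are spread over 7 chromosomes. *Nfatc2* (chr2:168476410-168601655) and *Nr4a2* (chr2:57107226-57124003) are on the minus strand of chromosome 2, and *Nr4a3* (chr4:48051248-48083352, plus strand) and *Tox* (chr4:6687386-6990723, minus strand) are on chromosome 4. *Nfatc3* (chr8:106059603-106130537), *Nr4a1* (chr15:101266846-101274794), *Egr2* (chr10:67537869-67542188) and *Egr3* (chr14:70077445-70080157) are on plus strands, and *Nfatc1* and *Egr1* are on chromosome 18. The spans printed here are those of the files, and each is shorter than the RefSeq gene. The RefSeq genes of *Nr4a3* and *Egr3* reach to 48086447 and 70082613. Those of *Nr4a1* and *Egr2* start upstream, at 101253902 and 67534469. Exons of *Nfatc3* share 219 bases with *Esrp2* on the opposite strand, and exons of *Tox* share 260 bases with an antisense gene, *Gm11802*, so their values could include reads of these neighbours unless reads were counted by strand. Of the 50-base words in the members' annotated transcripts, 2.83% in *Tox*, 1.76% in *Nfatc3*, 0.15% in *Nr4a3* and 0% in the other 7 genes occur elsewhere in annotated transcripts.

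Expression was measured as FPKM, a fragment count corrected for exon length and sequencing depth, so levels of different genes can be set side by side. Summed over all genes, the fragments implied by the confidence intervals in the files were 14463466 to 21058286 per library, the naive libraries having the lowest sums. These sums are an approximate measure of depth. The 2 libraries of a group had a Pearson's r of 0.953 to 0.960 on the log2(FPKM + 1) scale. It was taken over the 11198 genes averaging an FPKM of 1 or more over the libraries. This r is a description of the libraries, since genes are no independent replicates. The labels were checked against markers. The summed FPKM of 5 T cell markers was 1259 to 1702 in every library, that of 5 naive markers was 1617 to 1653 in naive cells and 182 to 493 in effector libraries, and *Ifng*, *Il4* and *Il17a* were each highest in both libraries of the subset they mark. Of other cell types, *Cd8b1* was at 90.5 and 52.8 in the naive libraries and 8.77 to 12.9 in the effector libraries, whereas *Cd8a* was at most 2.94. The 6 B cell markers summed to 2.49 to 13.9 and the 7 myeloid markers to 13.2 to 35.9. The sum of 6 dendritic cell markers rose from at most 0.902 in naive cells to 54.4 to 272 in effector libraries, nearly all of it *Batf3*, which effector T cells also express. The other 5 summed to 0.728 to 0.815 for naive, 1.22 to 1.36 for Th1, 2.72 to 2.82 for Th2 and 3.88 to 3.90 for Th17 libraries. Of these, *Itgax* had a mean of 0.613 for naive, 0.130 for Th1, 2.26 for Th2 and 1.62 for Th17 cells. It was higher in Th2 and Th17 than in naive and Th1 cells (limma, adjusted p = 6.88e-05 to 0.000978). *Flt3* and *Zbtb46* were highest in Th17 cells at 1.37 and 0.816, and *Xcr1* was highest in Th1 cells at 0.873. *Siglech* was listed at 0 in all effector libraries. Likewise, the 3 natural killer cell markers summed to 97.2 to 123 in Th1 cells, through *Nkg7*, which Th1 cells also express, while *Ncr1* was listed at 0 in effector cells. The neutrophil genes *Elane* and *Mpo* had an FPKM of 2.46 to 4.89 in replicate 1 of each effector subset and at most 0.106 in replicate 2.

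Promoters of the rapidly induced members are shown because these genes moved together or apart in the comparisons that follow. RefSeq windows of the GRCm38.p6 assembly were matched for *Nfatc2*, *Nfatc3*, *Nr4a1*, *Nr4a2*, *Nr4a3* and *Egr2*. The 3 windows below end at the base before the transcript start given in the files and hold 250 bases, or the nearest 200 for *Egr2*, and capitals mark the short site TGACG, a part of the cAMP response element, on either strand, read as CGTCA on the other strand, and the CArG box, the core of the serum response element. CREB and ATF factors bind cAMP response elements, and serum response factor binds CArG boxes.
*Nr4a1*, plus strand, chr15:101266596-101266845: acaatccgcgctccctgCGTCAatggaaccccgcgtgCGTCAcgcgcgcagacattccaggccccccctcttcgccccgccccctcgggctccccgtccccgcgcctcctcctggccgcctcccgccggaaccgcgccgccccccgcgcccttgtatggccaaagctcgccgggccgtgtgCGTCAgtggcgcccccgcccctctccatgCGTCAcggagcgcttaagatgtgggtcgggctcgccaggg
*Nr4a2*, minus strand, chr2:57124004-57124253: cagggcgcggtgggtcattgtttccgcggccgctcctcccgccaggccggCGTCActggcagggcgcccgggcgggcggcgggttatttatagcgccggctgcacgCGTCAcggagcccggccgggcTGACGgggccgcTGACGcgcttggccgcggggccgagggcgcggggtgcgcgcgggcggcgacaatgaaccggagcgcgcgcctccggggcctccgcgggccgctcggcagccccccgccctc
*Egr2*, plus strand, chr10:67537669-67537868: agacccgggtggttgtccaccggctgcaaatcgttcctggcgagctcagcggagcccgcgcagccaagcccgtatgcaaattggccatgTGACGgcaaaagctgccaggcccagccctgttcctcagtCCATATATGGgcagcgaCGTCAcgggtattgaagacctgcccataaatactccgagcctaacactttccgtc

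Each NR4A window held 4 of these short sites. With positions counted back from the base before the start, their first bases were at -233, -213, -69 and -40 in *Nr4a1* and at -200, -144, -123 and -111 in *Nr4a2*. The window of *Nr4a3*, which starts upstream of the start in the files, held them at -231, -213, -205 and -147. Among the 32851 mouse promoter windows of 250 bases, 17.77% held at least 1 short site and 0.14% (45 windows) held 4 or more. In *Egr2* the short sites were at -111 and -55 and the CArG box at -72, a box found in 1.47% of all windows. None of the NR4A windows held a CArG box, and the full element TGACGTCA and the EGR site GCGTGGGCG were in none of the windows matched to members, against 1.55% and 0.54% of all windows. The NFAT core GGAAA, searched on both strands, occurred in 55.57% of all windows once each in the printed windows of *Nr4a2* (-230) and *Egr2* (-8), up to 3 times in windows of *Nfatc2*, and in none of those of *Nr4a1* and *Nr4a3*. A match of letters is a description and does not show that a factor binds there.

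**Figure D1:**
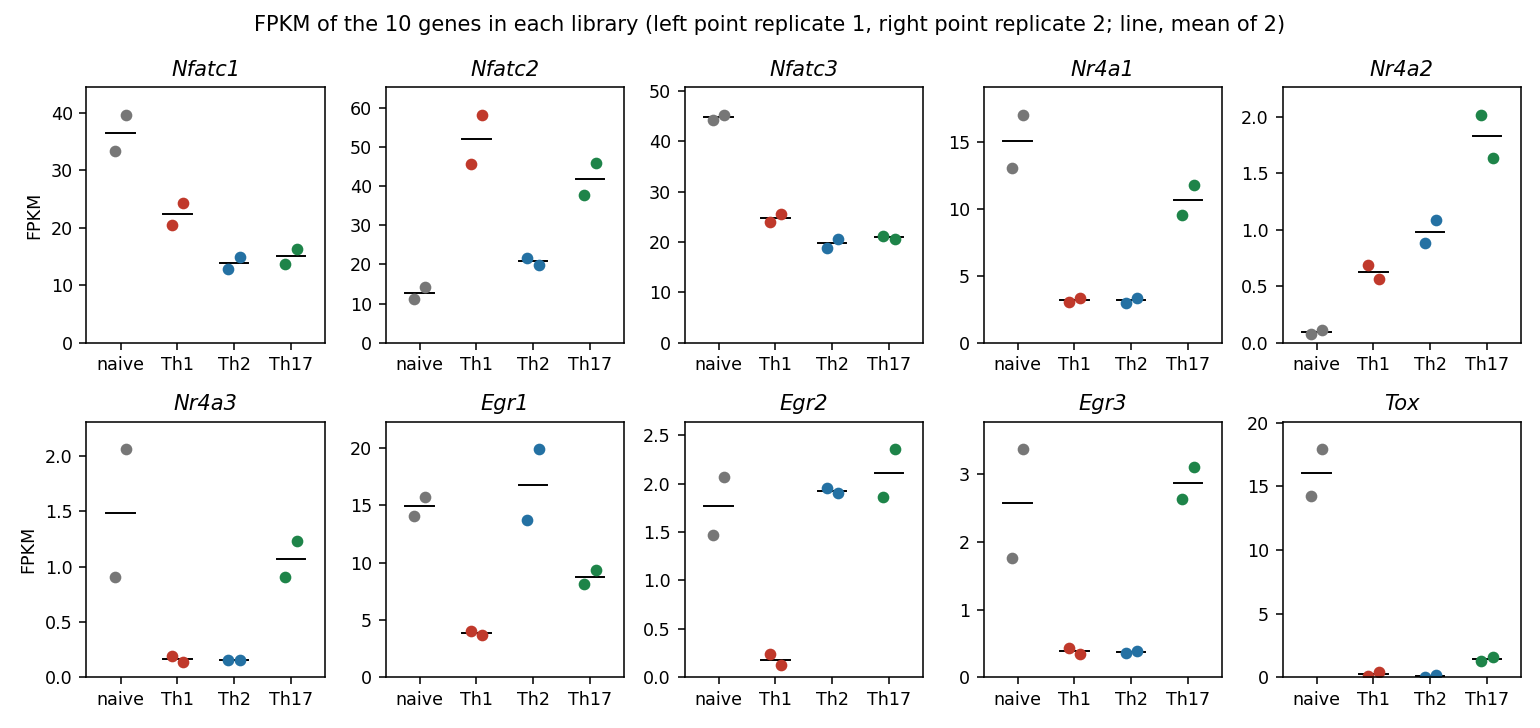
FPKM of each of the 10 genes (vertical axis, linear from 0) in the naive, Th1, Th2 and Th17 libraries, with 2 points per group and a line at their mean. *Nfatc1*, *Nfatc3* and *Tox* are highest in naive cells, *Nfatc2* is lowest there, and *Nr4a1*, *Nr4a3* and *Egr3* are low in Th1 and Th2 libraries while *Egr1* and *Egr2* are lowest in Th1 libraries.

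Compared with naive cells, most of these genes were lower after culture, and the subsets differed in which ones. Differences were tested with limma on log2(FPKM + 1) for the 11198 genes averaging an FPKM of 1 or more over the libraries, which included 8 members but not *Nr4a2* and *Nr4a3*, and a gene was called at an adjusted p under 0.05. In Th1 cells, 1 of the 8 tested members rose and 7 fell, where 33.8% of all tested genes rose and 33.5% fell. In Th2 cells, 1 rose and 5 fell, against 31.8% and 38.7% of all genes. In Th17 cells, 1 rose and 5 fell, against 37.5% and 29.8% of all genes. The gene that rose was *Nfatc2* in each case. The median log2 difference from naive cells over the 8 members was -1.28 for Th1, -1.24 for Th2 and -0.58 for Th17, beside medians over all tested genes of -0.01, -0.11 and 0.08. The 3 comparisons share the naive libraries and are therefore not independent. In bulk RNA, fewer cells that express a gene and less RNA per cell cannot be told apart.

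**Figure D2:**
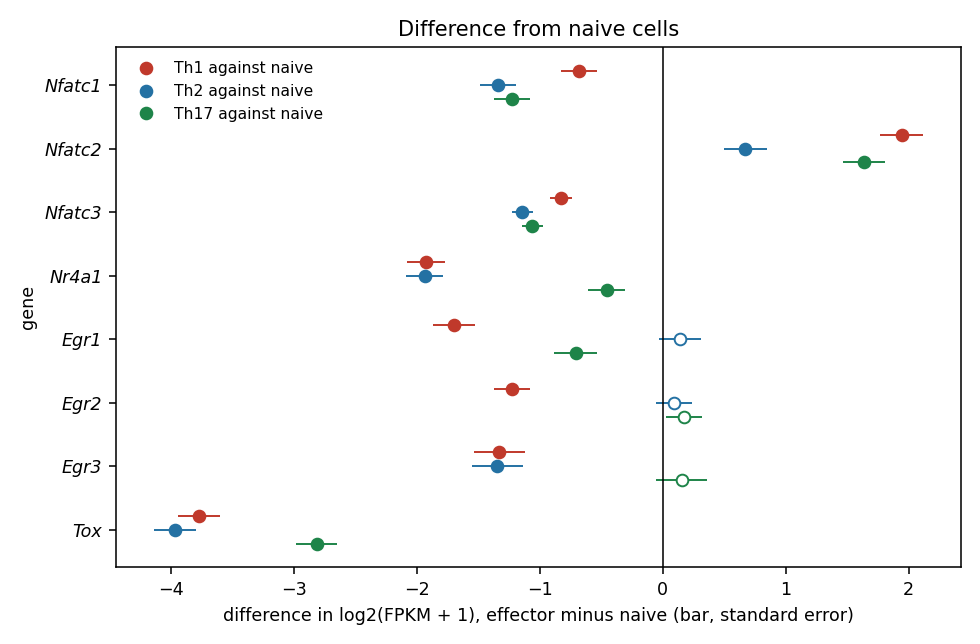
Difference in log2(FPKM + 1) between each effector subset and naive cells (horizontal axis) for the 8 tested genes, with bars for the standard error. Filled points passed the adjusted p threshold and open points did not. *Nfatc2* lies right of 0 in all 3 subsets and *Tox* lies farthest left, from -3.97 to -2.82.

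Within the NFAT family, *Nfatc2* rose while *Nfatc1* and *Nfatc3* fell in all 3 effector subsets. *Nfatc2* encodes NFAT1, which is present in resting T cells and drives cytokine genes upon stimulation. Its FPKM was 11.2 and 14.3 in the naive pair, 45.6 and 58.3 in the Th1 pair, 21.7 and 19.9 in the Th2 pair, and 37.7 and 46.0 in the Th17 pair. Both naive libraries lay below every effector library, and the Th2 libraries lay below those of the other 2 subsets. The means correspond to 4.07-fold (Th1), 1.63-fold (Th2) and 3.28-fold (Th17) the naive level, with log2 differences of 1.94 (Th1), 0.67 (Th2) and 1.64 (Th17), each with a standard error of 0.17 (adjusted p = 6.74e-05, 0.0104 and 0.000144). Without naive replicate 1 or without Th2 replicate 1, the difference of Th2 from naive cells was 0.51 or 0.61 and no longer passed (adjusted p = 0.0617 and 0.0603).

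*Nfatc1* encodes NFAT2, whose short isoform is induced by NFAT itself in activated lymphocytes. Its FPKM was 33.4 and 39.7 in the naive pair, 20.5 and 24.3 in the Th1 pair, 12.8 and 14.9 in the Th2 pair, and 13.7 and 16.3 in the Th17 pair. Both naive libraries lay above all effector libraries, and the Th2 and Th17 libraries overlapped. The log2 differences from naive cells were -0.68 in Th1, -1.34 in Th2 and -1.23 in Th17, each with a standard error of 0.15 (adjusted p = 0.00516, 0.000164 and 0.000275). Gene-level FPKM does not separate the isoforms.

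*Nfatc3* encodes NFAT4, another calcineurin-dependent NFAT protein of T cells and thymocytes. It was at an FPKM of 44.3 and 45.3 in the naive pair, 24.0 and 25.6 in the Th1 pair, 18.9 and 20.7 in the Th2 pair, and 21.3 and 20.7 in the Th17 pair. The naive libraries again lay above all the others, and the replicates of a group differed little. The log2 differences from naive cells were -0.83 (Th1), -1.14 (Th2) and -1.06 (Th17), with a standard error of 0.09 (adjusted p = 0.000166, 2.89e-05 and 4.36e-05).

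The make-up of the family therefore shifted more than its sum. The 3 NFAT genes together had an FPKM of 94.1 ± 7.39 for naive, 99.2 ± 12.8 for Th1, 54.4 ± 1.48 for Th2 and 77.8 ± 7.31 for Th17 cells (SD, n = 2). The sums of naive and Th1 libraries overlapped, and those of Th2 were the lowest. *Nfatc2* made up 13.5% ± 1.3 of the sum for naive, 52.2% ± 2.30 for Th1, 38.3% ± 3.38 for Th2 and 53.6% ± 2.50 for Th17 cells (SD, n = 2). *Nfatc3* was the most abundant of the 3 in both naive libraries, and *Nfatc2* in all Th1 and Th17 libraries. In Th2 replicate 2 their order was again *Nfatc3* before *Nfatc2*, at shares of 37.3% and 35.9%, whereas *Nfatc2* led in Th2 replicate 1. No test was made on sums or shares.

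**Figure D3:**
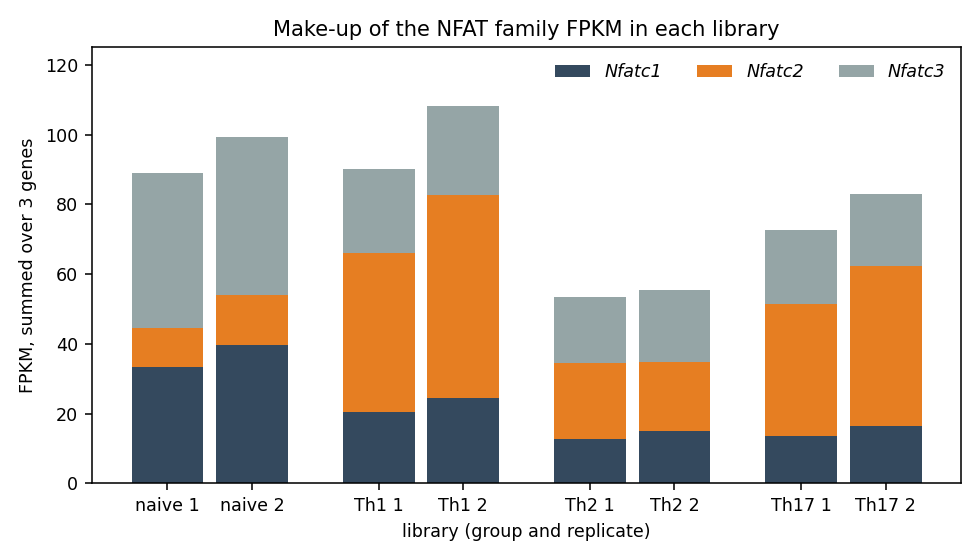
FPKM of *Nfatc1*, *Nfatc2* and *Nfatc3* stacked for each of the 8 libraries (vertical axis, linear from 0). The *Nfatc2* layer grows from 11.2 and 14.3 in the naive libraries to 45.6 and 58.3 in the Th1 libraries, while the 2 Th2 bars are the shortest at 53.4 and 55.5 in all.

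Among the NR4A genes, *Nr4a1* was the most abundant in every library, making up at least 72.9% of the family sum. *Nr4a1* encodes NUR77, widely used as a reporter of recent TCR signals. Its FPKM was 13.1 and 17.0 in the naive pair, 3.08 and 3.31 in the Th1 pair, 2.98 and 3.35 in the Th2 pair, and 9.51 and 11.8 in the Th17 pair. The Th1 and Th2 libraries overlapped each other and lay far below the rest, and the Th17 libraries lay between them and the naive libraries. The mean was 4.72-fold lower in Th1 and 4.76-fold lower in Th2 than in naive cells, with log2 differences of -1.93 and -1.94 (standard error 0.15, adjusted p = 3.83e-05 and 3.10e-05). In Th17 cells the difference was -0.46 (adjusted p = 0.0317). It did not pass in any of 6 fits that left out a library other than naive replicate 1 or Th17 replicate 2 (adjusted p = 0.0506 to 0.182), and was -0.28 without naive replicate 2. The same -0.46 did not pass without the filter or with only the 2 groups compared (adjusted p = 0.0897 and 0.0883), and passed with a block on the replicate number (adjusted p = 0.00531).

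*Nr4a3* encodes NOR1 and was detected at a low level in a similar pattern. It was at an FPKM of 0.909 and 2.06 in the naive pair, 0.194 and 0.142 in the Th1 pair, 0.156 and 0.158 in the Th2 pair, and 0.904 and 1.23 in the Th17 pair. The naive replicates differed by 2.27-fold, more than for any other member, and the 4 Th1 and Th2 libraries lay below the rest. The values in Th1 and Th2 rest on 7 to 10 implied fragments per library. Since its mean FPKM over the 8 libraries was 0.720, it was tested only in the fit without a filter on low values. There, its log2 differences from naive cells were -1.05 (Th1) and -1.06 (Th2), each with a standard error of 0.24 (adjusted p = 0.0256 and 0.0227), and the difference of -0.23 in Th17 did not pass (adjusted p = 0.600).

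*Nr4a2*, which encodes NURR1, went the other way. Its FPKM was 0.0773 and 0.109 in the naive pair, 0.691 and 0.562 in the Th1 pair, 0.881 and 1.09 in the Th2 pair, and 2.02 and 1.64 in the Th17 pair. The 4 groups did not overlap, and the order was naive, Th1, Th2, Th17. Without the filter, the log2 difference of Th1 from Th2 was -0.29 and did not pass (limma, adjusted p = 0.1035). The naive values rest on only 4 and 6 implied fragments. Its mean FPKM was 0.883, so it too was tested only without the filter, where it was higher than in naive cells by 0.57 in Th1, 0.86 in Th2 and 1.37 in Th17 on the log2 scale (standard error 0.09, adjusted p = 0.00840, 0.00194 and 0.000448). Without the filter, 35.3% of 23284 genes were called in Th1, 38.4% in Th2 and 38.3% in Th17 against naive cells. In the NR4A sum, the share of *Nr4a2* was 0.558% ± 0.0121 in naive cells and 22.8% ± 1.24 in Th2 cells (SD, n = 2), where that of *Nr4a1* went from 90.8% ± 3.04 to 73.5% ± 0.933.

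The EGR genes split into different patterns. *Egr1*, the most abundant of them in every library, was at an FPKM of 14.1 and 15.8 in the naive pair, 4.08 and 3.73 in the Th1 pair, 13.7 and 19.9 in the Th2 pair, and 8.12 and 9.39 in the Th17 pair. The Th1 libraries were the lowest, those of Th17 were intermediate, and the naive and Th2 libraries overlapped. The log2 difference from naive cells was -1.70 in Th1 and -0.71 in Th17 (standard error 0.17, adjusted p = 0.000134 and 0.00897). In Th2 cells it was 0.14 and did not pass (adjusted p = 0.496). Without Th2 replicate 1 that difference was 0.39 and passed (adjusted p = 0.0474), and the difference in Th17 no longer passed without naive replicate 2 or without Th17 replicate 1 (adjusted p = 0.0523 and 0.0609).

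*Egr2* was 1.47 and 2.07 in the naive pair, 0.235 and 0.124 in the Th1 pair, 1.96 and 1.90 in the Th2 pair, and 1.86 and 2.36 in the Th17 pair, in units of FPKM. The 2 Th1 libraries, with 10 and 20 implied fragments, stood apart from the other 6, which overlapped. The mean in Th1 was 9.84-fold below that of naive cells, and the log2 difference was -1.22 with a standard error of 0.15 (adjusted p = 0.000298), the pseudocount of 1 making this difference smaller than the fold. With a pseudocount of 0.1 it was -2.75. The differences in Th2 and Th17 were 0.09 and 0.17 and did not pass (adjusted p = 0.609 and 0.330). Under quantile normalization, the one in Th17 was -0.39 and passed (adjusted p = 0.0328).

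*Egr3* resembled *Nr4a1* and not *Egr2*. It was at an FPKM of 1.77 and 3.37 in the naive pair, 0.429 and 0.339 in the Th1 pair, 0.351 and 0.383 in the Th2 pair, and 2.64 and 3.11 in the Th17 pair. The Th1 and Th2 libraries overlapped and lay below the rest, while both Th17 libraries fell between the naive replicates. The values rest on only 16 and 12 implied fragments in the Th1 pair and 13 and 14 in the Th2 pair. The log2 differences from naive cells were -1.33 in Th1 and -1.35 in Th2 (standard error 0.21, adjusted p = 0.00118 and 0.00101), and 0.15 in Th17, which did not pass (adjusted p = 0.541). With a pseudocount of 0.1, those of Th1 and Th2 were -2.40 and -2.44. Without naive replicate 2, the difference in Th17 was 0.48 and passed (adjusted p = 0.0191). By the root mean square difference between profiles centred on their own mean over the 8 libraries, on the log2(FPKM + 1) scale, *Egr3* and *Nr4a1* were 0.277 apart and *Egr3* and *Egr2* 0.612 apart.

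*Tox* encodes an HMG box factor needed for CD4 T cell development in the thymus and associated with exhaustion in chronically stimulated T cells. Its FPKM was 14.3 and 17.9 in the naive pair, 0.110 and 0.387 in the Th1 pair, 0.0124 and 0.163 in the Th2 pair, and 1.26 and 1.56 in the Th17 pair. Every effector library lay far below both naive libraries, and the Th17 libraries lay above those of Th1 and Th2, which overlapped. The log2 differences from naive cells were -3.77 in Th1, -3.97 in Th2 and -2.82 in Th17 (standard error 0.17, adjusted p = 2.50e-06, 1.62e-06 and 8.62e-06), the largest in size among the 8 tested members in each comparison. With a pseudocount of 0.1, the difference in Th2 was -6.55. The mean FPKM in Th17 was 11.4-fold below that of naive cells. No fold is given for Th2, because 1 of its libraries held about 1 implied fragment of this gene.

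Between the effector subsets, all 8 tested members differed in at least 1 of the 3 comparisons, as did 59.9% of all tested genes. The count was 8 with median scaling, beside 56.1% of all genes, and 7 under quantile normalization, beside 56.2%, where *Nfatc3* did not pass. It was also 7 with only the 2 groups compared and 6 to 8 with a library left out, the 6 being without Th1 replicate 2. Of the 8, 3 were higher and 2 lower in Th1 than in Th2 cells, against 27.4% and 16.9% of all tested genes. In Th1 against Th17 cells, 1 was higher and 5 were lower, against 9.17% and 16.0% of all genes. In Th17 against Th2 cells, 4 were higher and 1 was lower, against 31.7% and 12.0% of all genes. The scale between libraries bears on these splits. Over all genes, 61.8% of the calls between Th1 and Th2 were higher in Th1, and 50.2% with median scaling. For Th17 against Th2 the share was 72.6%, and 52.3% with median scaling, and for Th1 against Th17 it was 36.5%, and 49.7% with quantile normalization. The median of all genes in the comparison of Th17 with Th2 moved from 0.18 to 0.02 with median scaling. The called differences of the members kept their direction under both scalings, and the call of *Nfatc3* between Th1 and Th2 was lost under both (log2 differences of 0.20 and 0.19), while *Nfatc3* between Th1 and Th17 passed with median scaling (adjusted p = 0.0438).

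**Figure D4:**
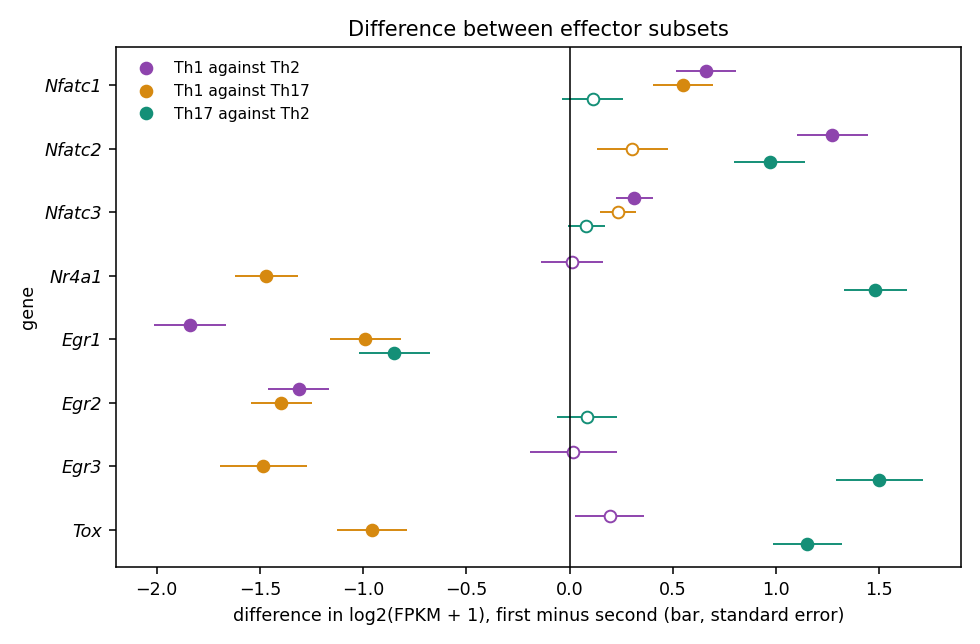
Difference in log2(FPKM + 1) between pairs of effector subsets (horizontal axis) for the 8 tested genes, with bars for the standard error, filled points passing the adjusted p threshold. *Nr4a1*, *Egr3* and *Tox* differ between Th17 and each of the other subsets, whereas *Egr2* differs between Th1 and each of the others.

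*Nr4a1*, *Egr3* and *Tox* were higher in Th17 cells than in both other subsets. For *Nr4a1* the log2 difference was 1.48 against Th2 and that of Th1 against Th17 was -1.47 (standard error 0.15, adjusted p = 0.000533 and 0.000656), a mean FPKM 3.37-fold and 3.34-fold that of Th2 and Th1. *Egr3* gave 1.50 and -1.48 (standard error 0.21, adjusted p = 0.00189 and 0.00266), and *Tox* gave 1.15 and -0.96 (standard error 0.17, adjusted p = 0.00224 and 0.00696). A pseudocount of 0.1 made these 2.67 and -2.62 for *Egr3* and 3.13 and -2.23 for *Tox*, with the calls kept. Between Th1 and Th2 the differences of these 3 genes were 0.01, 0.02 and 0.19 and did not pass (adjusted p = 0.964, 0.961 and 0.387). Without the filter on low values, *Nr4a2* was likewise higher in Th17 than in Th1 and Th2 cells, the log2 difference of Th1 against Th17 being -0.80 and that of Th17 against Th2 being 0.51 (adjusted p = 0.00807 and 0.0219, where 14.1% and 21.7% of all genes were called). Those of *Nr4a3*, -0.82 and 0.83, did not pass (adjusted p = 0.104 and 0.0740), although its libraries did not overlap. The 6 B cell markers summed to 12.8 to 13.9 in Th17, 7.25 to 10.2 in Th2 and 2.49 to 3.29 in Th1 libraries, with *Ms4a1* at most 0.806 in all 6. The sum of the 5 dendritic cell markers other than *Batf3* was also highest in Th17, though not each of them, as given above. Their part in these differences was not tested.

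*Egr1* and *Egr2* were lower in Th1 cells than in both other subsets. For *Egr1* the difference of Th1 was -1.84 from Th2 and -0.99 from Th17 (standard error 0.17, adjusted p = 0.000255 and 0.00676), and Th17 differed from Th2 by -0.85 (adjusted p = 0.00828). The difference between Th1 and Th17 no longer passed without Th1 replicate 2 or Th17 replicate 2 (adjusted p = 0.0510 and 0.0556), nor that between Th17 and Th2 without Th17 replicate 1 (adjusted p = 0.0526). *Egr2* differed by -1.31 from Th2 and -1.40 from Th17 (standard error 0.15, adjusted p = 0.000559 and 0.000710), at a mean FPKM 10.7-fold and 11.7-fold below them, and by -2.89 and -3.00 with a pseudocount of 0.1. The 7 myeloid markers summed to 13.2 to 15.0 in Th1, 32.2 to 35.9 in Th2 and 24.5 to 25.7 in Th17 libraries. *Itgax* had the same order, as did the means of *Lyz2*, *Csf1r*, *Adgre1* and *Cd68* among the 7. *Cd14* did not, its mean FPKM being lowest for Th2 (0.548), then Th1 (2.75) and Th17 (4.08). The mean of *Itgam* was slightly higher for Th17 than for Th2, and *Fcgr1* was listed at 0 for both. *Egr1* had the order of the sum, whereas the mean of *Egr2* was highest for Th17. The part of these markers in the differences of *Egr1* and *Egr2* was not tested.

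The NFAT genes were higher in Th1 than in Th2 cells, by 1.27 for *Nfatc2* (standard error 0.17), 0.66 for *Nfatc1* (0.15) and 0.31 for *Nfatc3* (0.09), with adjusted p = 0.00132, 0.0107 and 0.0263. *Nfatc2* was also higher in Th17 than in Th2 cells by 0.97 (adjusted p = 0.00487), and its difference of 0.30 between Th1 and Th17 did not pass (adjusted p = 0.259). *Nfatc1* was higher in Th1 than in Th17 cells by 0.55 (limma, adjusted p = 0.0342, and 0.00169 with the replicate block). The last call was lost without any 1 of the 4 libraries compared (adjusted p = 0.0620 to 0.176), without the filter (0.0927) and with only the 2 groups compared (0.0615). The call was also lost for *Nfatc1* between Th1 and Th2 without Th1 replicate 2 or Th2 replicate 1 (adjusted p = 0.0714 and 0.0596), and for *Nfatc3* between Th1 and Th2 without either Th1 library or Th2 replicate 1 (0.0624 to 0.139) and with only the 2 groups compared (0.0732).

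Other genes of the same families add to this picture. *Nab2*, which encodes a corepressor that binds EGR proteins and is itself an EGR target, had an FPKM of 16.4 and 20.0 in the naive pair, 6.81 and 7.05 in the Th1 pair, 15.1 and 17.0 in the Th2 pair, and 14.3 and 17.1 in the Th17 pair. As for *Egr2*, the Th1 libraries stood below the other 6, with log2 differences of Th1 of -1.27 from naive, -1.11 from Th2 and -1.07 from Th17 cells (standard error 0.13, adjusted p = 0.00015, 0.00078 and 0.0015). *Nab1*, its relative, fell in the 3 subsets (-0.33 to -0.29), a call that median scaling and quantile normalization ended in Th1 and Th2 cells (adjusted p = 0.0577 to 0.421). *Nfat5*, the family member that responds to osmotic stress and does not depend on calcineurin, rose in each subset by 0.67 to 1.19, and *Nfatc2ip*, which encodes a protein that binds NFAT1, fell (-0.79 to -0.44). *Tox4* rose in Th17 cells by 0.24, and also passed in Th2 cells with median scaling and quantile normalization (0.38 and 0.31), and *Nfatc4*, *Egr4*, *Tox2* and *Tox3* were below the filter, *Egr4* being listed at 0 in all libraries. In all, of the 5 relatives tested, 1 rose and 3 fell in Th1, 1 rose and 2 fell in Th2, and 2 rose and 2 fell in Th17 cells. Over all tested genes, 33.8%, 31.8% and 37.5% rose and 33.5%, 38.7% and 29.8% fell. With median scaling, as with quantile normalization, the counts of the relatives were 1 and 2, 2 and 1, and 2 and 2.

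Genes that feed calcium to NFAT moved in both directions. Of 9 genes for store release and calcium entry, 2 rose and 4 fell in Th1, 1 rose and 3 fell in Th2, and 3 rose and 5 fell in Th17 cells, with list medians of -0.51, -0.45 and -0.65 beside -0.01, -0.11 and 0.08 over all genes. The shares that fell were 44.4%, 33.3% and 55.6%, where 33.5%, 38.7% and 29.8% of all tested genes fell. *Orai2*, a subunit of the calcium channel, was at an FPKM of 76.0 ± 2.65 for naive, 9.40 ± 0.443 for Th1, 6.56 ± 0.956 for Th2 and 12.3 ± 0.939 for Th17 cells (SD, n = 2), with log2 differences of -3.35 to -2.53. *Orai3*, a sister subunit, rose in each subset, from 6.01 ± 0.288 to 14.2 ± 1.06, 9.45 ± 2.55 and 17.5 ± 0.797 (SD, n = 2). *Stim1*, the calcium sensor of the endoplasmic reticulum, fell (log2 differences of -1.22 to -1.07). *Stim2*, a second sensor, separated the subsets, its FPKM being 9.18 ± 0.207 for Th1, 3.42 ± 0.313 for Th2 and 6.13 ± 0.200 for Th17 cells (SD, n = 2). *Itpr2*, a receptor that releases stored calcium, gave a log2 difference of -0.93 in Th17 against Th2 cells, which passed.

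Calcineurin subunits changed in opposite directions. *Ppp3cc*, the catalytic gamma subunit, rose in each subset, its FPKM being 18.4 ± 2.09 for naive, 97.4 ± 10.1 for Th1, 103 ± 9.01 for Th2 and 79.8 ± 2.77 for Th17 cells (SD, n = 2), by 2.07 to 2.42 on the log2 scale. *Ppp3ca*, the alpha subunit, was 10.7 ± 0.0801 in naive and 9.56 ± 0.840 in Th1 cells but 4.09 ± 0.217 in Th2 and 3.49 ± 0.571 in Th17 cells (SD, n = 2), and the difference of 1.24 between Th1 and Th17 passed (adjusted p = 0.00042). *Calm3*, a calmodulin gene, rose in each subset by 0.45 to 0.88, and *Calm2*, another one, was higher in Th17 than in Th2 cells by 0.91, a call lost with median scaling and quantile normalization (0.71 and 0.74, adjusted p = 0.0928 and 0.0753). Of the 6 tested genes of the list, 3 rose and 0 fell in Th1, 2 rose and 1 fell in Th2, and 3 rose and 1 fell in Th17 cells, with medians of 0.31, 0.26 and 0.34. The shares of all tested genes that rose were 33.8%, 31.8% and 37.5%, and those that fell were 33.5%, 38.7% and 29.8%. The count of 0 by limma was also 0 at an unadjusted p under 0.05, and *Ppp3ca*, *Ppp3cb* and *Ppp3r1* had negative differences in Th1 that did not pass.

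Of 10 tested genes for calcineurin inhibitors, NFAT-binding proteins and NFAT kinases, 3 rose and 4 fell in Th1, 2 rose and 5 fell in Th2, and 4 rose and 3 fell in Th17 cells, with medians of -0.21, -0.20 and 0.00. Over all tested genes, 33.8%, 31.8% and 37.5% rose and 33.5%, 38.7% and 29.8% fell. With median scaling the counts were 3 and 3, 4 and 4, and 4 and 3. With quantile normalization they were 1 and 5, 3 and 5, and 4 and 4. *Dyrk1a* and *Dyrk2* encode kinases that phosphorylate NFAT for its export from the nucleus. *Dyrk1a* fell in each subset (-1.24 to -0.94), and *Dyrk2* went from 41.3 ± 8.56 in naive cells to 26.2 ± 4.22 for Th1, 6.29 ± 0.461 for Th2 and 4.98 ± 0.532 for Th17 cells (FPKM, SD, n = 2). The difference of *Dyrk2* between Th1 and Th17 was 2.18 (standard error 0.17, adjusted p = 0.0002). *Csnk1a1*, a casein kinase that also phosphorylates NFAT, rose in each subset by 0.48 to 1.01 (in Th1 by 0.25 with quantile normalization, adjusted p = 0.0724), as did *Chp1*, a calcineurin-inhibiting calcium-binding protein, by 0.35 to 0.58. *Cabin1*, another inhibitor, was higher in Th17 than in Th2 cells by 0.65 (adjusted p = 0.029), a call also lost with both scalings (0.47 and 0.49, adjusted p = 0.0694 and 0.0629).

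**Figure D5:**
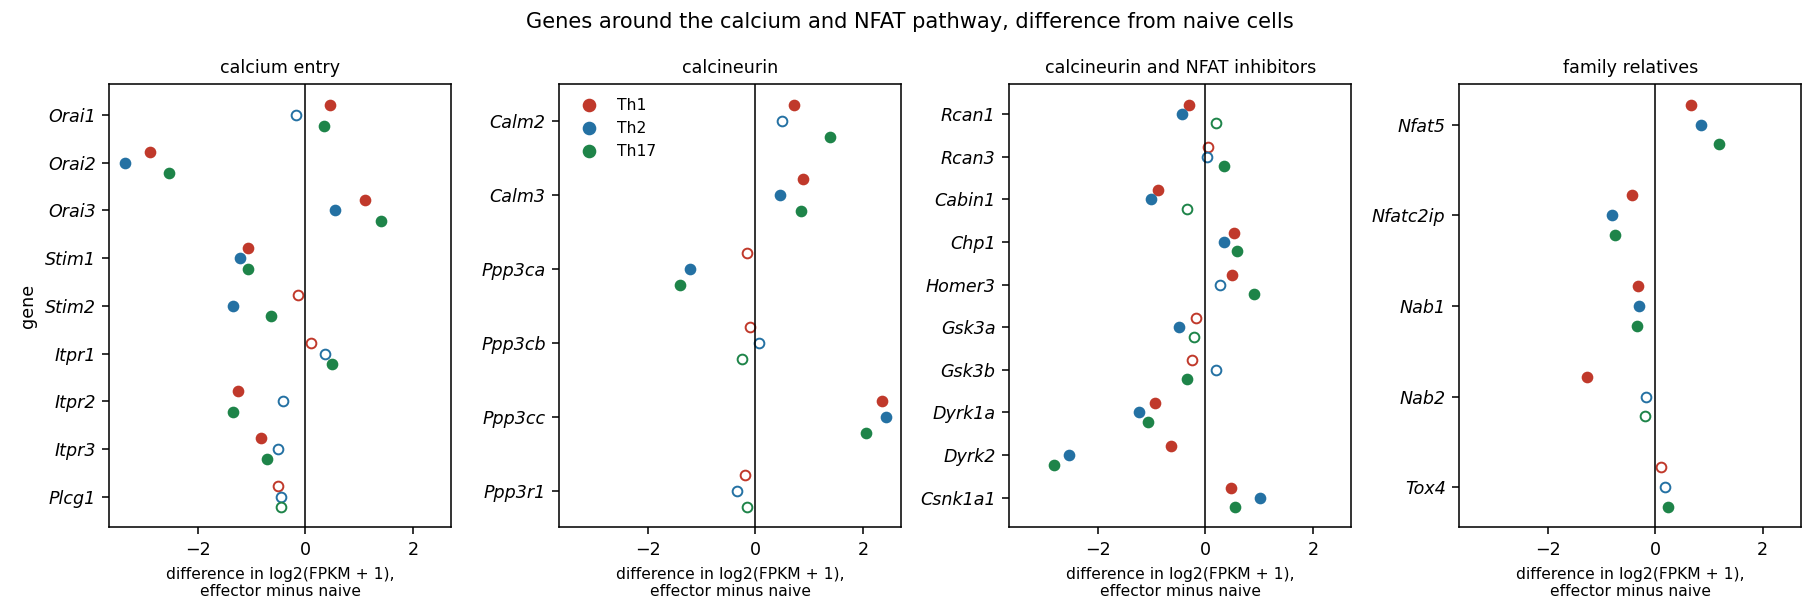
Difference in log2(FPKM + 1) from naive cells (horizontal axis) for the tested genes of 4 lists, with 1 point for each of Th1, Th2 and Th17, filled where the adjusted p threshold was passed. *Orai2* and *Dyrk2* reach -3.35 and -2.81, and *Ppp3cc* lies between 2.07 and 2.42.

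Immediate-early genes outside the EGR and NR4A families did not share 1 direction. Of 16 tested, 4 rose and 9 fell in Th1, 4 rose and 11 fell in Th2, and 5 rose and 9 fell in Th17 cells, the medians being -0.61, -1.26 and -0.89. Beside these counts, 33.8%, 31.8% and 37.5% of all tested genes rose and 33.5%, 38.7% and 29.8% fell. Among those that fell in all 3 subsets, *Klf2*, a regulator of quiescence and lymphocyte homing, gave log2 differences of -4.71 to -3.99, *Btg2*, an antiproliferative gene, -3.10 to -2.38, *Dusp1*, a MAP kinase phosphatase, -2.19 to -1.67, and *Zfp36*, an mRNA decay factor, -2.61 to -1.55. Those that rose were the AP-1 gene *Fosl2* (4.57 to 4.88), *Ier3* (4.91 to 6.00), *Atf3* (3.58 to 4.54) and *Myc* (1.21 to 2.73). *Jun* was higher in Th1 than in Th17 cells by 2.09 and *Klf6* higher in Th17 than in Th2 cells by 1.82.

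Of 13 tested genes that TCR stimulation induces, 10 rose and 3 fell in Th1, 8 rose and 5 fell in Th2, and 9 rose and 3 fell in Th17 cells, with medians of 2.17, 0.73 and 1.81. Among all tested genes, 33.8%, 31.8% and 37.5% rose and 33.5%, 38.7% and 29.8% fell. With quantile normalization, 6 of the list rose and 5 fell in Th2 cells. *Irf4*, a factor whose level follows TCR signal strength, rose by 5.31 to 6.01, *Bhlhe40* by 5.65 to 6.74, *Dusp4* by 4.25 to 4.87 and *Nrn1* by 3.35 to 5.82, while *Nfkbid* fell (-2.43 to -1.68), as did *Cd40lg*, the ligand through which helper cells activate B cells (-3.59 to -0.58, that in Th1 not passing with median scaling, adjusted p = 0.0804). *Cd69*, an early activation marker, was at an FPKM of 38.4 ± 5.74 for naive, 18.6 ± 2.69 for Th1, 3.71 ± 0.474 for Th2 and 44.5 ± 1.33 for Th17 cells (SD, n = 2), the difference between Th17 and Th2 being 3.28. *Tnf* was higher in Th1 than in Th2 cells by the same 3.28. Between Th17 and Th2 cells, 10 of the 13 genes were higher in Th17 and 0 were higher in Th2 by limma, with 10 and 0 also at an unadjusted p under 0.05, and the list had a median of 1.08 beside 0.18 over all genes, 31.7% of which were higher in Th17 and 12.0% higher in Th2. With median scaling, 9 were higher in Th17 and 0 in Th2, with a median of 0.90 beside 0.02 over all genes, and with quantile normalization 9 and 1.

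For each tested member, the 2 other genes whose centred profile was nearest over the 8 libraries were listed as a description, the distance being the root mean square difference in log2(FPKM + 1). They were *D930015E06Rik* and *Ablim1* for *Nfatc1* (both 0.069), *Arhgef10l* and *Spry1* for *Nfatc2* (0.104 and 0.136), and *Htatsf1* and *Ctcf* for *Nfatc3* (0.0561 and 0.0643). *Ext1* and *Wls* were nearest to *Nr4a1* (0.180 and 0.200), *Fyb* and *Tnfrsf12a* to *Egr1* (0.170 and 0.175), *Irgq* and *Slc17a9* to *Egr2* (0.137 and 0.143), *Tnip1* and *Cd101* to *Egr3* (0.217 and 0.225), and *Degs2* and *Slfn5* to *Tox* (0.202 and 0.236). *Slfn5*, for example, went from a mean FPKM of 36.5 in naive cells to 0.908 in Th1, 1.05 in Th2 and 2.70 in Th17. Within the list of members, *Nfatc1* and *Nfatc3* were the nearest pair, at 0.170.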

How the data were processed

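RNA of naive, Th1, Th2 and Th17 cells was sequenced as 50-base reads, with 2 libraries per group. Alignment by the authors used Bowtie 0.12.8 and TopHat 1.3.2 on mm10, and FPKM came from Cufflinks 2.0.2. The deposited values are FPKM per gene with a confidence interval and an estimation status, which was OK for every member in every library. The kit is stranded per the labels and not stranded per the methods.

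Rows were summed per symbol, and genes averaging an FPKM of 1 or more over the libraries were tested on log2(FPKM + 1) with limma 3.58.1 in R 4.3.3 (group means, all 8 libraries, mean-variance trend). Tests were two-sided, p-values were adjusted by Benjamini and Hochberg over the 11198 genes, and the threshold was 0.05. Differences on this scale understate the change of low genes. In simulated data on Th1 against naive with 11198 genes, 200 were changed by 2 on the log2 scale. Of these, 100% were recovered, and 3.38% of the calls were false. The simulated noise was normal, independent between genes, and had a spread smoothed over their level. In the data, 33.8% of genes rose and 33.5% fell in this comparison, and most differences of members were smaller than 2. These rates therefore need not hold for the data. Implied fragments were computed from the width of the intervals, are no read counts and do not cover the spread between libraries. They did not always follow FPKM. For *Nfatc2* they were 1213 at an FPKM of 11.2 in naive replicate 1 and 1131 at 14.3 in naive replicate 2. They are therefore approximate. Python 3.11.15 was used with numpy 2.4.6, pandas 2.3.3 and matplotlib 3.10.9.

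The members and gene lists were chosen with earlier results of these data known. Named from each list were up to 4 genes that passed in 1 direction in all 3 subsets, ranked by their smallest difference, and the 2 with the largest passing difference between subsets. *Tox4* and the 3 genes with negative differences in the calcineurin list were named after their values were seen. Deviations of libraries with the same replicate number were correlated in all 6 pairs of groups (0.138 to 0.294), so the numbers may pair the libraries. The main fit and the fits with a library left out held no block on the replicate number. The block was run as an alternative. The replicate numbers come from the labels, which do not say what libraries of the same number share. From the calcium entry and calcineurin lists, 1 gene each is not reported here and is left out of the counts. *Chp1* was matched through a RefSeq synonym, and coordinates and promoters were read from GENCODE and RefSeq tables. Alternatives were a pseudocount of 0.1, no filter, a mean FPKM of at least 5, median scaling, quantile normalization, only the 2 groups compared, no trend, the replicate block, the largest row per symbol, and each library left out.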

Additional observations from a re-analysis of the deposited data

Results flagged for a closer look

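Each of the 8 tested members differed between effector subsets in the limma fit, that is, its change from naive cells was not the same in both subsets compared. The same held for 59.9% of all tested genes. The largest difference on the log2 scale for each was 0.66 for *Nfatc1*, 1.27 for *Nfatc2* and 0.31 for *Nfatc3*, all higher in Th1 than in Th2. The call of *Nfatc3* was lost with median scaling, quantile normalization, only the 2 groups compared, and 3 of the 8 left-out libraries. The largest difference was 1.48 for *Nr4a1*, 1.50 for *Egr3* and 1.15 for *Tox*, all higher in Th17 than in Th2. For *Egr1* it was -1.84 in Th1 against Th2, and for *Egr2* -1.40 in Th1 against Th17. The causes were not tested.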

How the results depend on the processing

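The number of the 8 tested members called kept within 1.5 times its value under every alternative except the filter and a left-out library. With a mean FPKM of at least 5, which leaves *Nfatc1*, *Nfatc2*, *Nfatc3*, *Nr4a1* and *Egr1* only, 5 were called in Th1 against naive, 3 in Th1 against Th17 and 3 in Th17 against Th2, the loss following from fewer members tested. With each library left out, 8 were called in each case in Th1 against naive, 5 to 6 in Th2 against naive, 4 to 6 in Th17 against naive, 3 to 5 in Th1 against Th2 (3 without Th1 replicate 2 or Th2 replicate 1), 4 to 6 in Th1 against Th17 and 4 to 5 in Th17 against Th2. Of the 384 differences of single genes in these fits, 360 kept their side of the threshold. So did 405 of 414 under the other settings. Quantile normalization turned *Egr2* in Th17 against naive to -0.39. The cause was not tested. With the replicate block, 6 members were called in Th17 against naive, and the block changed no call of a member in any of the 6 comparisons. At 2 libraries per group, an SD is a rough estimate, and values under about 20 implied fragments are imprecise.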

Other observations

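The 2 naive libraries differed in a shared way in these genes. All 10 members had a higher FPKM in naive replicate 2 than in replicate 1, by 1.02-fold (*Nfatc3*) to 2.27-fold (*Nr4a3*). Of the 13 activation-induced genes, 10 were higher there too, whereas of the 16 other immediate-early genes only 1 was, and over all tested genes 50.8% were. In Th1, Th2 and Th17 cells, 5, 8 and 8 of the 10 members were higher in replicate 2. The share over all tested genes was not computed for these subsets, so a shift of whole libraries cannot be told apart there. The cause of the difference between the naive libraries was not tested.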
